A study of Mus musculus with 20 samples.

Results

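The apolipoprotein genes are described here by 10 members, *Apoa1*, *Apoa2*, *Apoa4*, *Apoa5*, *Apob*, *Apoc1*, *Apoc3*, *Apoc4*, *Apoe* and *Apom*, which were chosen by symbol among the 54532 genes of the liver count table. All 10 were among the 12289 genes that had a CPM (counts per 1000000 counts of the library) of at least 2 in at least 3 mice and were tested. Liver was taken from 20 male C57BL/6 mice fed a high-fat diet (HFD) until obese (12 weeks), then given Roux-en-Y gastric bypass (RYGB) or a sham operation and kept on chow or HFD for 8 further weeks. The groups were Sham Chow and Sham HFD, and RYGB Chow and RYGB HFD, 4 in all, with 5 mice each and 1 library per mouse. Every mouse, the Sham Chow mice included, had thus been obese and operated on, so no group stands for a mouse that was never obese, and Sham Chow mice had changed diet as well. The study reports that Sham HFD mice were heavier than all other groups and names body weight as a confounder. In contrasts that hold Sham HFD, body weight therefore cannot be told apart from surgery or diet.

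Apolipoproteins are the protein part of the lipoproteins that carry triglyceride and cholesterol through the blood, and the liver makes most of them. *Apob* encodes the scaffold of VLDL and LDL and *Apoa1* that of HDL, while the small exchangeable apolipoproteins move between particles and act on the enzymes and receptors that handle them. *Apoc3* and *Apoc1* encode inhibitors of triglyceride clearance, *Apoa5* an activator of lipoprotein lipase, *Apoe* a ligand of the LDL receptor family, *Apoa2* the second HDL protein, *Apoa4* a protein made mainly by the intestine and in fatty liver, and *Apom* the carrier of sphingosine-1-phosphate on HDL.

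The members lie in 2 clusters and at 3 single places of the mouse genome (GRCm38, mm10). On chromosome 9, *Apoa1* (46228580 to 46230466, plus strand), *Apoc3* (46232933 to 46235636, minus strand), *Apoa4* (46240696 to 46243459, plus strand) and *Apoa5* (46268633 to 46271919, plus strand) share 43.34 kb. On chromosome 7, *Apoc4*, *Apoc1* and *Apoe*, all on the minus strand, lie between 19678083 and 19699188 (21.11 kb). *Apoa2* is on chromosome 1 (171225054 to 171226379), *Apob* on chromosome 12 (7977648 to 8016835) and *Apom* on chromosome 17 (35128997 to 35132050, minus strand). *Apoa4* shares 34.9% of its exon bases with *Gm47528* and 34.8% with *Gm10680*, and *Apoa5* shares 20.8% with *Gm47544*, all on the opposite strand. *Gm47528* had 80 counts or fewer in every mouse and *Gm10680* and *Gm47544* had 0. The libraries kept strand, but the strand setting of the counting is not given in the sources used here, so reads of the opposite strand cannot be told apart in these stretches. On the same strand, *Apoc4* shares 4.69% of its exon bases with *Gm44805*.

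The sequences before the starts of *Apoa1*, *Apoa4* and *Apoa5* are shown because these cluster neighbours moved differently, as described below. They are from RefSeq (GRCm38.p6), where 8 of the 10 members matched, on the plus strand, 5′ to 3′, and hold the bases within 250 of the RefSeq start that also lie before the GENCODE start. Capitals mark matches on either strand to 5 motifs, TATAAA (a core promoter element), CAAAGNNCA (a form of the direct repeat bound by HNF4A and PPARA), TTGCNNAA (a C/EBP core), the HNF1 motif and CACGTG (an E-box).
Apoa1 chr9:46228380-46228579: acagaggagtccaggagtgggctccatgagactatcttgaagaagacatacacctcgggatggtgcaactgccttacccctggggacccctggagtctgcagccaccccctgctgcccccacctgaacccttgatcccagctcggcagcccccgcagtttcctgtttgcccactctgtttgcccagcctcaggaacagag
Apoa4 chr9:46240594-46240695: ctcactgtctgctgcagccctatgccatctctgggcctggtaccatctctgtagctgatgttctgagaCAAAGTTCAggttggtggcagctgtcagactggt
Apoa5 chr9:46268383-46268632: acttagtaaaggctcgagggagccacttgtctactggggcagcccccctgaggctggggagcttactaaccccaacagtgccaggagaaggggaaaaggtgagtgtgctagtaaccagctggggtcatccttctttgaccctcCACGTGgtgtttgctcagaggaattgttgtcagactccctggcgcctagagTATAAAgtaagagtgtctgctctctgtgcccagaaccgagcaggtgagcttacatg
In the 102 bases before *Apoa4* the only match was CAAAGTTCA, 34 to 26 bases before the GENCODE start. That start lies 148 bases before the RefSeq start. Of 32536 promoters, 2.23% held a match to CAAAGNNCA in the first 102 of the 250 bases before their RefSeq start. This share is thus of bases away from the RefSeq start, not of the bases next to it. The 250 bases before *Apoa5* held CACGTG 107 to 102 bases and TATAAA 56 to 51 bases before the start. Of all promoters, 6.04% and 12.3% held these motifs in a stretch of that length. The 200 bases before *Apoa1* held no match to the 5 motifs as spelled. No matches overlapped each other, and a match is given as a description of the letters only.

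Total counts ran from 14604854 to 22537498 per mouse. The scaling factors (edgeR's TMM) lay between 0.916 and 1.13, the highest being that of RYGB Chow replicate 3, and all values below are TMM-scaled CPM unless stated. Fold changes come from edgeR's quasi-likelihood test in 1 model of all 20 mice, are log2 ratios in which the group named second is divided by that named before it, with the standard error (SE), and were called at an adjusted p under 0.05 (two-sided, Benjamini-Hochberg over the 12289 genes). The exact permutation tests are two-sided over all splits of 5 mice against 5 and can give no p below 0.00794. Labels name no batch, so within-batch values could not be computed. In bulk liver, fewer cells of a type and less RNA per cell cannot be told apart.

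Of the 10 members, 6 were called in Sham HFD vs. RYGB HFD, where 16.4% of all tested genes were called (8.54% higher and 7.9% lower). *Apoa1* and *Apom* were higher in RYGB HFD, and *Apoa4*, *Apoc3*, *Apoa5* and *Apoe* were lower. In Sham Chow vs. RYGB Chow 0 members were called (background 0.057%), 4 had an unadjusted p under 0.05, DESeq2 called 1 (*Apoc3*) and limma-voom 0. In Sham Chow vs. Sham HFD 3 members were called (background 21.6%, of which 10.9% higher and 10.7% lower), *Apoa4* higher and *Apoa1* and *Apom* lower in Sham HFD. In RYGB Chow vs. RYGB HFD 0 were called (background 3.65%), 2 had an unadjusted p under 0.05, and DESeq2 and limma-voom called 0. The 2 contrasts that hold Sham HFD share those 5 mice, so opposite signs in them are not independent of each other.

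**Figure D1:**
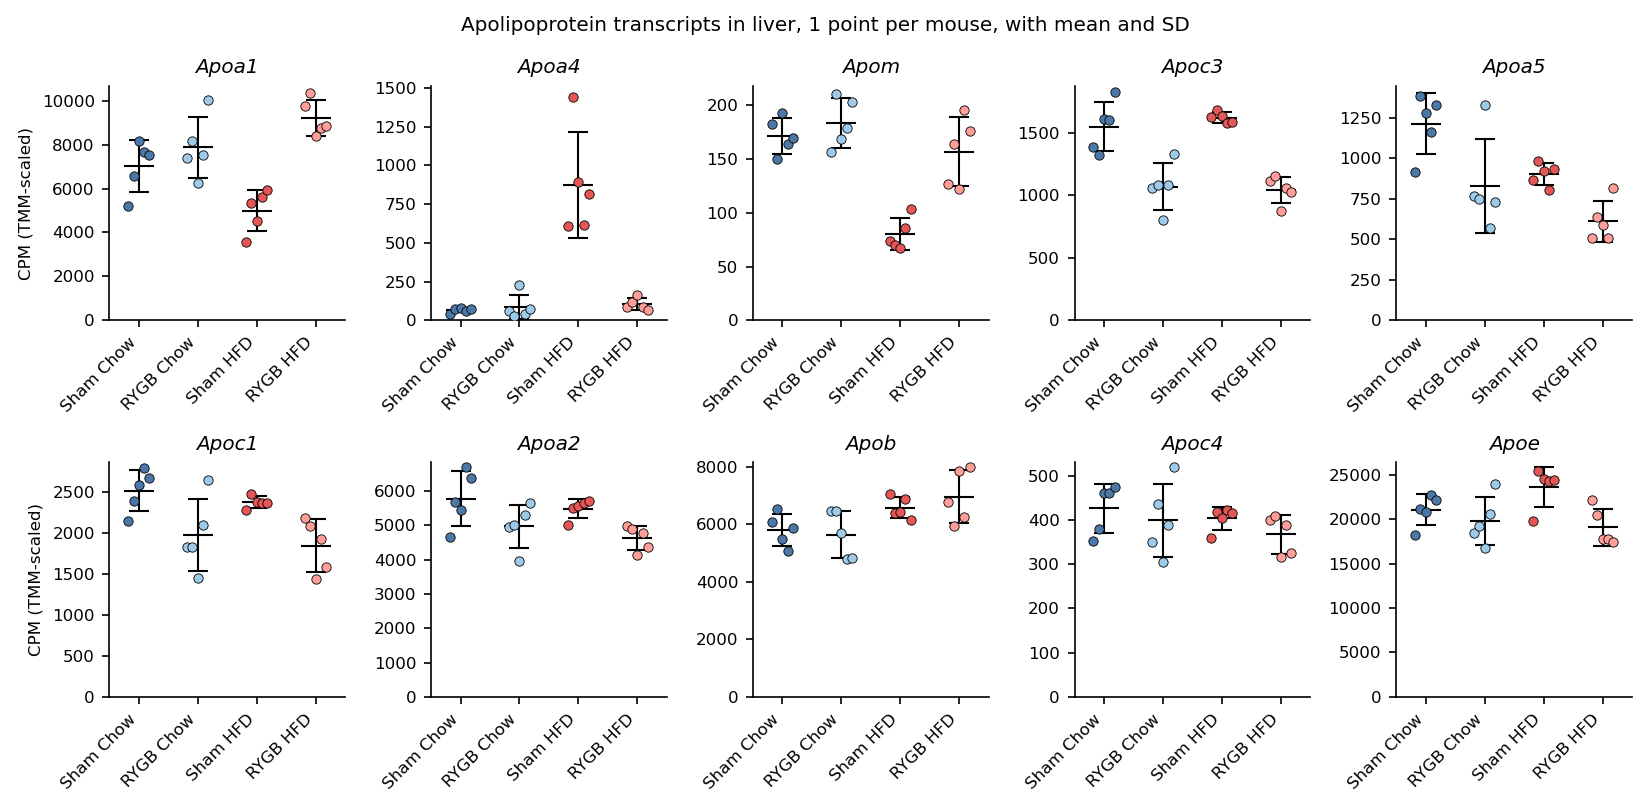
TMM-scaled CPM (linear axis from 0) of each member in each of the 20 mice, with the group mean and SD (n = 5) as bars. The 5 Sham HFD mice stand alone in *Apoa4* (606 to 1441 CPM) and *Apom* (66.9 to 103 CPM), while *Apoc3* lies lower in both RYGB groups.

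*Apoa4* showed the largest called fold changes of the 10 members. Its level in Sham HFD was 606, 1441, 892, 616 and 813 CPM, and in Sham Chow 43.0, 75.4, 76.8, 60.0 and 70.6 CPM. In RYGB HFD it was 88.2, 119, 161, 88.6 and 66.8 CPM, and in RYGB Chow 60.4, 28.4, 225, 41.6 and 75.1 CPM. Every Sham HFD mouse was above every mouse of the other groups, and RYGB Chow replicate 3 was the highest of the remaining 15. The mean was 874 ± 341 CPM (SD, n = 5) in Sham HFD against 65.2 ± 14.03 in Sham Chow, a log2 fold change of 3.74 (SE 0.44, adjusted p = 1.1e-05), or 13.4-fold. From Sham HFD to RYGB HFD (105 ± 36.6 CPM) it fell by 3.06 on the log2 scale (SE 0.43, adjusted p = 6.4e-05). RYGB Chow vs. RYGB HFD gave 0.28 (95% confidence interval -0.55 to 1.12) and Sham Chow vs. RYGB Chow 0.40 (-0.44 to 1.24), neither called. Without RYGB Chow replicate 3 the latter was -0.34 (adjusted p = 0.864). *Apoa4* ranked between 80 and 192 among all genes by CPM in the Sham HFD mice and between 547 and 4624 in the other mice.

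Since *Apoa4* is also an intestinal gene, markers of small intestine epithelium were read beside it. Of the 7 markers, *Lct*, *Alpi*, *Sis*, *Cdx2* and *Rbp2* had at most 3 counts in every mouse, and *Vil1* at most 6. The summed level of the list was 154 to 170 CPM in Sham HFD, 38.3 to 112 in Sham Chow, 44.0 to 81.4 in RYGB Chow and 65.8 to 132 in RYGB HFD. Nearly all of it was *Fabp2*, a fatty acid binding protein. *Fabp2* was higher in Sham HFD than in Sham Chow (log2 fold change 1.25, SE 0.21, adjusted p = 4.1e-04), and its RYGB HFD level was below that of Sham HFD (-0.75, SE 0.21, adjusted p = 0.0184).

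*Apom* was lowest in Sham HFD. Its level there was 73.9, 70.5, 66.9, 86.4 and 103 CPM, against 182, 149.8, 193, 164 and 169.7 CPM in Sham Chow. After RYGB it was 156, 211, 169, 179 and 203 CPM on chow and 126, 164, 122, 196 and 176 CPM on HFD. No Sham HFD mouse reached the lowest mouse of any other group, and the other 3 groups overlapped each other. The fitted log2 difference was -1.10 in Sham Chow vs. Sham HFD (SE 0.14, adjusted p = 1.6e-05), and RYGB HFD over Sham HFD gave 0.97 (SE 0.14, adjusted p = 6.2e-05). On chow, RYGB against sham gave 0.10 (-0.18 to 0.38), and in RYGB mice HFD against chow gave -0.23 (-0.51 to 0.05).

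*Apoa1*, the HDL scaffold, was also lower in Sham HFD than in Sham Chow and higher in RYGB HFD than in Sham HFD. Sham HFD mice measured 3581, 5339, 4513, 5609 and 5942 CPM and RYGB HFD mice 9748, 10329, 8370.1, 8735 and 8863 CPM. Sham Chow mice measured 5206, 6547, 8164, 7643 and 7536 CPM and RYGB Chow mice 7409, 8182, 6241, 7513 and 10009.8 CPM. All RYGB HFD mice were above all Sham HFD mice and above all Sham Chow mice, whereas Sham HFD and Sham Chow overlapped through Sham Chow replicate 1. Sham HFD vs. RYGB HFD gave a log2 fold change of 0.88 (SE 0.14, adjusted p = 2.6e-04), from 4997 ± 952 to 9209 ± 805 CPM. In Sham Chow vs. Sham HFD it was -0.49 (SE 0.14, adjusted p = 0.0183). That call was lost without Sham Chow replicate 3 (adjusted p = 0.0547) and without Sham HFD replicate 1 (0.0503).

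Hepatocyte markers moved with *Apoa1* and *Apom*. The summed level of 8 hepatocyte markers was 74780 to 83892 CPM in Sham HFD and 92427 to 110235 in Sham Chow, against 106228 to 123060 in RYGB HFD and 78649 to 127312 in RYGB Chow. Of the 8, 6 were called lower and 0 higher in Sham HFD than in Sham Chow (background 10.7% lower and 10.9% higher). Against Sham HFD the RYGB HFD mice had 7 called higher and 1 lower (background 8.54% higher and 7.9% lower). The summed level of 5 stellate cell markers was 288 to 337 CPM in Sham HFD, above the 132 to 284 CPM of the other mice. Kupffer cell markers (8) summed to 113 to 299 CPM in Sham Chow and 235 to 567 in the other groups. The part of these levels in the changes of *Apoa1* and *Apom* was not tested. Leukocyte markers (4) summed to 16.4 to 20.3 CPM in Sham HFD and 6.85 to 13.9 in Sham Chow, without overlap, and to 9.43 to 18.9 in RYGB mice. Of 5 lipid-associated macrophage markers, 4 were called higher and 1 lower in Sham HFD than in Sham Chow (background 10.9% and 10.7%). Their median log2 fold change was 1.30, with summed levels of 47.7 to 75.4 CPM in Sham HFD and 32.0 to 50.2 CPM in Sham Chow. For the remaining lists, whose groups overlapped between Sham Chow and Sham HFD, the summed ranges over all 20 mice were 76.8 to 250.3 CPM for sinusoidal endothelium (5 genes), 3.57 to 11.9 for cholangiocyte (4) and 95.9 to 428 for red cell (3).

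Whether the effect of diet differed between RYGB and sham mice was tested as the surgery by diet interaction, the log2 fold change of RYGB Chow vs. RYGB HFD less that of Sham Chow vs. Sham HFD. It was called for 3 of the 10 members, where 5.06% of all genes were called (2.48% higher and 2.58% lower). The interaction was -3.46 for *Apoa4* (SE 0.58, adjusted p = 0.00201), 0.87 for *Apom* (SE 0.19, adjusted p = 0.0115) and 0.72 for *Apoa1* (SE 0.20, adjusted p = 0.0423). On HFD against chow, *Apoa4* gave 3.74 in sham and 0.28 in RYGB mice, *Apom* -1.10 and -0.23, and *Apoa1* -0.49 and 0.23. Among the markers, the interaction was called higher for 5 of 8 hepatocyte genes (median 0.68), and lower for 3 of 5 stellate cell genes (median -0.74) and 2 of 5 lipid-associated macrophage genes (median -0.63), and their part in the members' interaction was not tested. For *Apoa1* the call was not firm, since its adjusted p passed 0.05 in 14 of 20 fits without 1 mouse (highest 0.0855, without Sham Chow replicate 3). It also passed 0.05 with no filter (0.0526) and with library size only (0.0554). For *Apoc3*, *Apoa5*, *Apoc1* and *Apoa2* the interaction lay between -0.10 and -0.01, with 95% intervals reaching from -0.53 to 0.50, so differences between diets of that size cannot be told from 0.

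**Figure D2:**
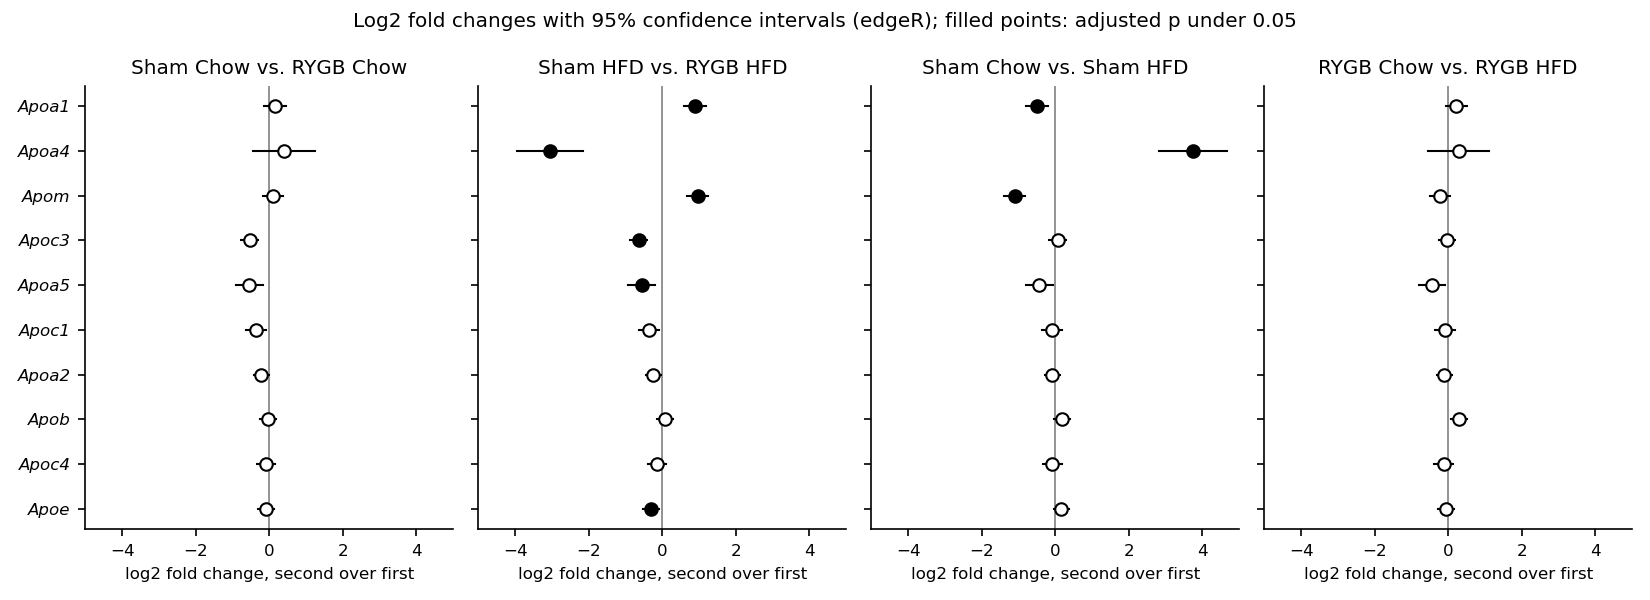
Log2 fold change (x axis) of each member with its 95% confidence interval in the 4 contrasts. Filled points had an adjusted p under 0.05; they number 0, 6, 3 and 0 from left to right, and *Apoa4* has the widest interval.

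*Apoc3*, *Apoa5* and *Apoc1*, which act on triglyceride clearance, had a lower mean level in RYGB than in sham mice on both diets. The same held for *Apoa2*, *Apoe* and *Apoc4*, so the direction was not particular to the genes named first. On HFD *Apoc3*, *Apoa5* and *Apoe* passed the test. *Apoc3* measured 1624, 1681, 1629, 1577 and 1585 CPM in Sham HFD and 1109.6, 1149.7, 873, 1055 and 1022 CPM in RYGB HFD. On chow it was 1387, 1322, 1609.9, 1599 and 1821 CPM in sham and 1053, 1081, 801, 1078 and 1325 CPM in RYGB mice. The groups did not overlap on HFD, and on chow only RYGB Chow replicate 5 reached the lowest sham mouse. The 95% intervals of the log2 fold change were -0.86 to -0.41 on HFD and -0.76 to -0.31 on chow. On chow the adjusted p was 0.0713, with an exact permutation p of 0.0159. The adjusted p fell to 0.0308 without RYGB Chow replicate 5 and to 0.0494 without Sham Chow replicate 2. In the other 18 of 20 fits without 1 mouse it did not pass (highest 0.269). Under 9 other settings it ran from 0.00124 (DESeq2) to 0.464, and 2 of them passed. Within groups *Apoc3* was tightest in Sham HFD, with a coefficient of variation of 2.57% against 10.2% to 17.4% in the others.

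The 2 surgery contrasts share no mice, and their average, the mean surgery effect, was called for 7 of 10 members (background 10.5%, with 4.97% higher and 5.52% lower). For *Apoc3* it was -0.59 (SE 0.08, adjusted p = 9.7e-05), a fold of 0.666. It was also lower for *Apoa5* (-0.56, SE 0.12, adjusted p = 0.00701), *Apoc1* (-0.36, SE 0.09, adjusted p = 0.0169), *Apoa2* (-0.23, SE 0.07, adjusted p = 0.042) and *Apoa4*, and higher for *Apoa1* and *Apom*. For the last 3 genes the average joins unlike contrasts, since the surgery by diet interaction was called for each, though not firmly for *Apoa1*. *Apoa2* lost its call in 13 of 20 fits without 1 mouse (highest adjusted p = 0.0769, without Sham Chow replicate 4) and with no filter (0.0807).

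*Apoa5* had its largest departure in 1 library. It measured 765, 749.7, 1332, 569.8 and 734 CPM in RYGB Chow against 914, 1383, 1284, 1163 and 1330.4 CPM in Sham Chow, and 508, 639, 587, 512 and 815 CPM in RYGB HFD against 869.8, 984, 922, 804 and 935 CPM in Sham HFD. In each diet 4 of 5 RYGB mice were below every sham mouse, and the exceptions were RYGB Chow replicate 3 and RYGB HFD replicate 5. Without RYGB Chow replicate 3 the log2 fold change on chow was -0.79 (adjusted p = 0.0192) in place of -0.55 (0.265). The HFD call (-0.56, SE 0.18, adjusted p = 0.0322) was lost when any of Sham HFD replicates 2, 3 and 5 or RYGB HFD replicates 1, 3 and 4 was left out (highest adjusted p = 0.0845, without RYGB HFD replicate 4).

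*Apoc1* and *Apoa2* gave the smaller differences. On HFD, *Apoc1* was 2283 to 2486 CPM in sham and 1446 to 2193 CPM in RYGB mice, and *Apoa2* was 5022 to 5704 CPM in sham and 4139 to 4978 CPM in RYGB mice, so neither gene's groups overlapped. Their log2 fold changes on HFD were -0.36 (SE 0.13, adjusted p = 0.0624) and -0.24 (SE 0.10, adjusted p = 0.102). For *Apoc1* the call depended on the setting, with an adjusted p of 0.0317 by DESeq2, 0.0494 by limma-voom, 0.0117 with library size only, 0.0486 with a CPM of at least 5 and 0.0247 with only the 2 groups. It also passed without RYGB Chow replicate 3 (0.0298), RYGB Chow replicate 5 (0.0269) or RYGB HFD replicate 1 (0.0372). In the other 17 of 20 fits without 1 mouse it did not pass (highest 0.152), nor in 4 of 9 other settings (highest 0.0782). *Apoa2* passed on HFD with library size only (adjusted p = 0.00933), with only the 2 groups (0.0211) and without RYGB Chow replicate 3 (0.0492). The other 7 of 9 settings (highest 0.185) and 19 of 20 fits without 1 mouse (highest 0.206) did not call it. On chow *Apoc1* was 2155 to 2798 CPM in sham and 1457 to 2655 CPM in RYGB mice and *Apoa2* was 4666 to 6694 and 3956 to 5636 CPM, with overlap in both. In all, groups did not overlap for 6 members in Sham HFD vs. RYGB HFD (background 14.7%), namely *Apoa1*, *Apom*, *Apoa4*, *Apoc3*, *Apoc1* and *Apoa2*. They did not overlap for 2 in Sham Chow vs. Sham HFD (*Apoa4* and *Apom*, background 16.5%), and for 0 in Sham Chow vs. RYGB Chow (1.33%) and RYGB Chow vs. RYGB HFD (5.05%).

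*Apob*, the scaffold of VLDL and LDL, was 5060.3 to 6519 CPM in Sham Chow and 4777 to 6463 in RYGB Chow mice, and on HFD 6146 to 7043 after sham operation and 5927 to 7985 after RYGB. Its mean diet effect, the average of the 2 diet contrasts, was 0.24 (SE 0.07, adjusted p = 0.0258), while the 95% interval of its mean surgery effect was -0.13 to 0.18. The mean diet effect was called for 4 members in all (background 20.9%, with 10.2% higher and 10.7% lower), with *Apoa4* (2.01) also higher and *Apoa5* (-0.43, adjusted p = 0.0175) and *Apom* (-0.66) lower on HFD. For *Apoa4* and *Apom* this average joins unlike contrasts, since their surgery by diet interaction was called. HFD against chow gave 3.74 and -1.10 in sham mice but 0.28 and -0.23, neither called, in RYGB mice. The mean diet call of *Apob* was lost with no filter (adjusted p = 0.0677) and without RYGB HFD replicate 3 (0.0502), and that of *Apoa5* with library size only (0.0502).

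*Apoe*, the most abundant member by counts, was 19747 to 25454 CPM in Sham HFD, 17467 to 22114 in RYGB HFD, 18243 to 22770.4 in Sham Chow and 16706 to 23932 in RYGB Chow. It fell by 0.31 (SE 0.10) on the log2 scale in Sham HFD vs. RYGB HFD with an adjusted p of 0.0447. The adjusted p was over 0.05 in 11 of 20 fits without 1 mouse, 0.0694 with the replicate number as a block and 0.0921 with no filter. *Apoc4* lay between 304 and 519 CPM in all 20 mice and was called in 0 contrasts by edgeR, DESeq2 or limma-voom, with 0 contrasts at an unadjusted p under 0.05. Its mean surgery effect was -0.12 (95% interval -0.30 to 0.06) and its mean diet effect -0.10 (-0.28 to 0.08).

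The 4 neighbours of the chromosome 9 cluster did not move as 1 block. In Sham HFD vs. RYGB HFD *Apoa1* was higher while *Apoc3*, *Apoa4* and *Apoa5* were lower, and in Sham Chow vs. Sham HFD *Apoa4* was higher, *Apoa1* lower and *Apoc3* near 0 (0.07, 95% interval -0.16 to 0.29). On chromosome 7, *Apoc1* had a called mean surgery effect, and *Apoe* (-0.20, adjusted p = 0.0876) and *Apoc4* did not. For *Apoe* it was called by DESeq2 (adjusted p = 0.0373), with library size only (0.0284), and without RYGB Chow replicate 5 (0.0283) or Sham HFD replicate 1 (0.0429). The other 18 of 20 fits without 1 mouse (highest 0.148) and 6 of 8 other settings (highest 0.173) did not call it. Whether *Apoc1* and *Apoe* differ in this effect was not tested.

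**Figure D3:**
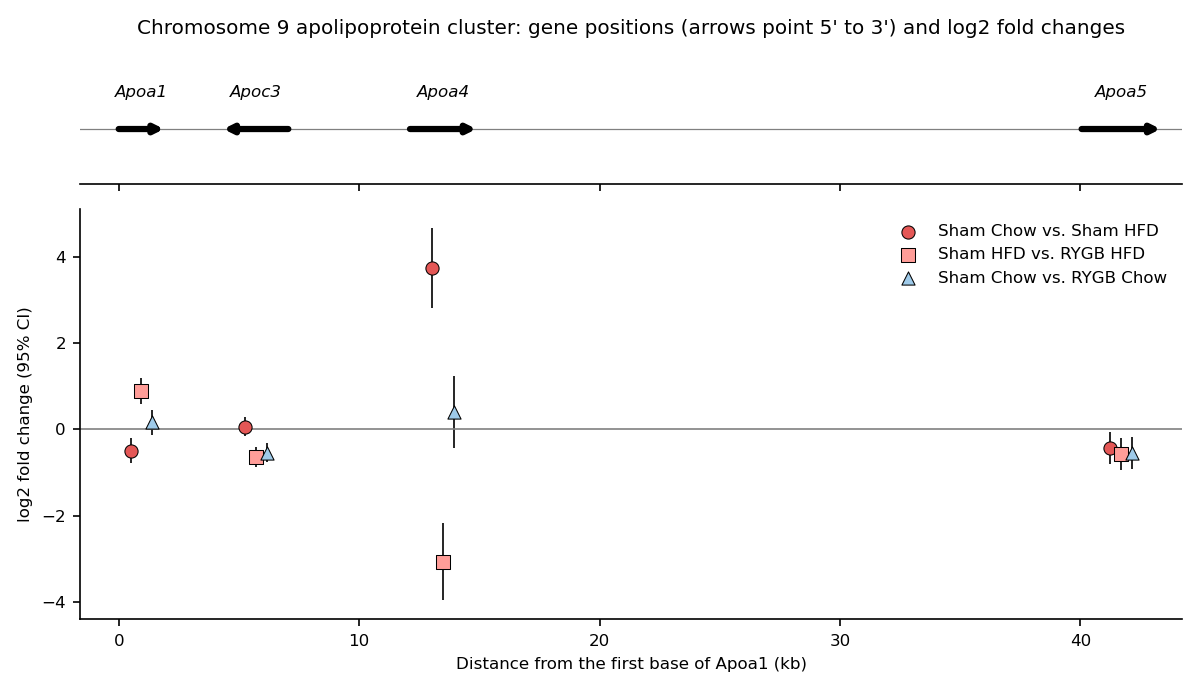
Gene positions of the chromosome 9 cluster in kb from the first base of *Apoa1* (top, arrows 5′ to 3′) and log2 fold changes with 95% confidence intervals in 3 contrasts (bottom, points of a gene shifted sideways for legibility). *Apoa4* reaches 3.74 and -3.06, while *Apoa1*, *Apoc3* and *Apoa5* lie between -0.64 and 0.88.

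A ratio of 2 genes in a library does not depend on the scaling. The log2 ratio of *Apoc3* to *Apoa1*, each per kb of exon, was -2.06 to -1.62 in Sham Chow and -2.68 to -2.52 in RYGB Chow, while on HFD it was -1.62 to -0.86 in sham and -2.97 to -2.76 in RYGB mice. On each diet every RYGB mouse was below every sham mouse, including RYGB Chow replicate 3 at -2.68. The group means were in that order -1.89 ± 0.19, -2.60 ± 0.07, -1.32 ± 0.31 and -2.86 ± 0.08 (SD, n = 5), given with no test because the pair was chosen with earlier results known. The log2 ratio of *Apoc3* to *Apoa5*, 2 genes with opposed roles in lipolysis, overlapped between surgeries on both diets, with means on chow of 1.67 ± 0.25 (sham) and 1.72 ± 0.67 (RYGB) and on HFD of 2.16 ± 0.09 (sham) and 2.098 ± 0.33 (RYGB).

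**Figure D4:**
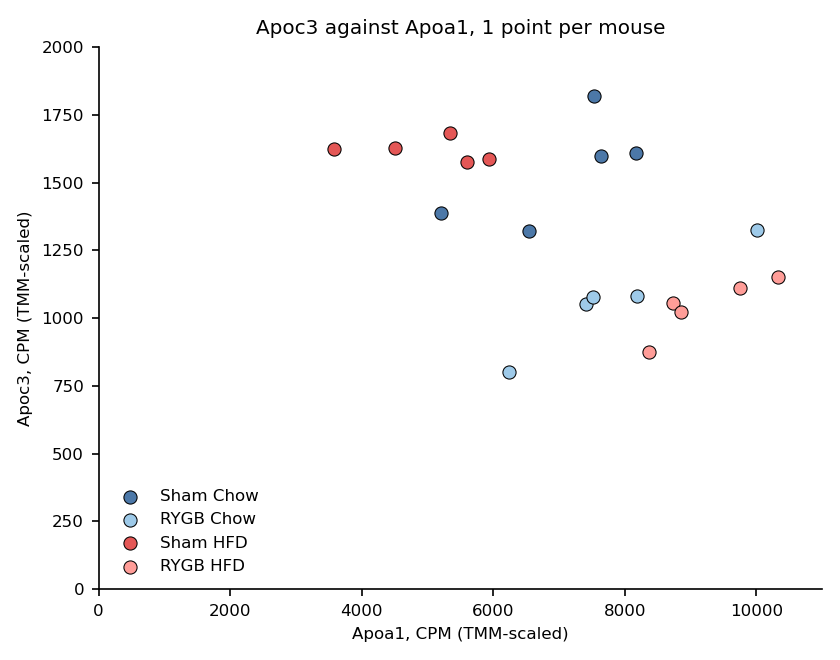
*Apoc3* (y axis) against *Apoa1* (x axis) in TMM-scaled CPM, 1 point per mouse, both axes from 0. RYGB mice have less *Apoc3* for their *Apoa1* than sham mice, with log2 ratios per kb from -2.97 to -2.52 against -2.06 to -0.86.

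Compared per length (CPM per kb of exon), *Apoa2* and *Apoe* were the highest members, followed by *Apoa1*, *Apoc1* and *Apoc3* in all 4 groups. In Sham Chow *Apoa2* was at 10758 ± 1491 and *Apoe* at 9843 ± 818, and their ranges overlapped in every group. *Apoa1* came next at 5679 ± 947, *Apoc1* at 3391 ± 340.0 and *Apoc3* at 1526 ± 196, each without overlap with its neighbour. *Apoa5* (482 ± 74.2) overlapped with *Apob* (416 ± 39.9), and *Apom* (169.6 ± 16.5) with *Apoc4* (168 ± 22.1). *Apoa4* was lowest at 35.9 ± 7.73 in Sham Chow and also last in both RYGB groups. In Sham HFD *Apoa4* was 6th at 481 ± 188, overlapping with *Apob*, and *Apom* was last at 79.1 ± 14.6. With the longest transcript in place of the exon union, 6 of 10 members kept their place in Sham Chow and 10 in Sham HFD, and 8 did in each RYGB group.

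**Figure D5:**
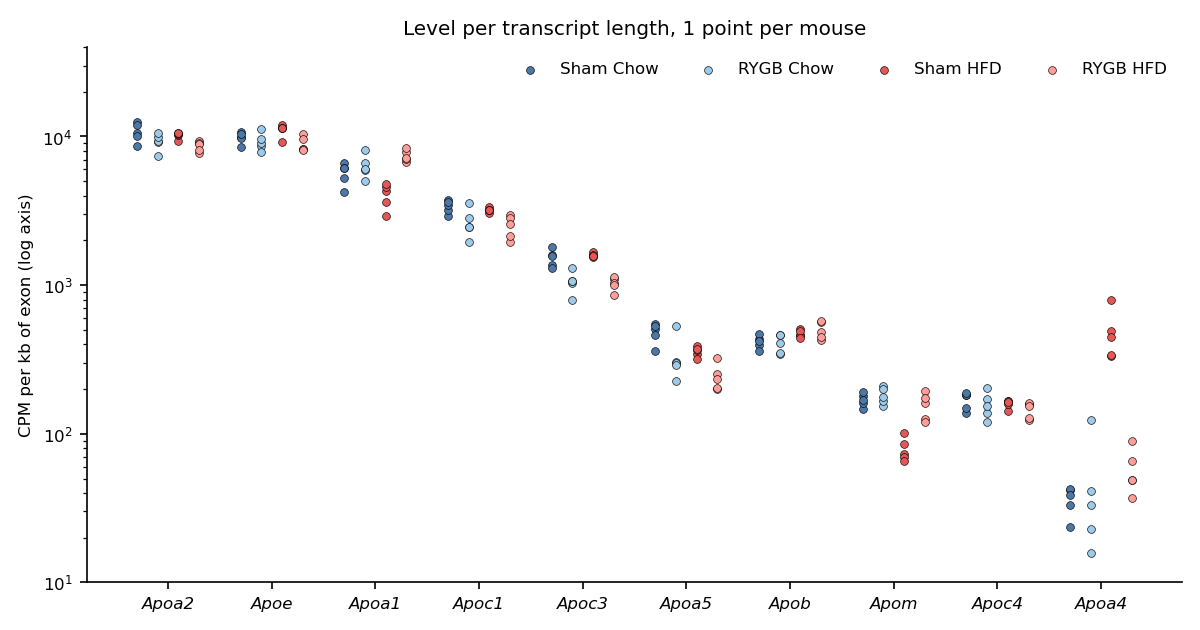
Level of each member in CPM per kb of exon (log axis), 1 point per mouse, in 4 colours for the groups. *Apoa2* and *Apoe* are highest, and *Apoa4* moves from 35.9 (mean, Sham Chow) to 481 (mean, Sham HFD).

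Together the 10 members held 3.88% to 4.64% of all counts in Sham Chow and 4.34% to 5.24% in Sham HFD, and 3.98% to 4.63% and 3.98% to 4.80% after RYGB on the same diets, with overlap between all groups. *Apoe* alone made up 43.3% (RYGB HFD) to 50.3% (Sham HFD) of the members' counts. The share of *Apoa1* was 10.6% in Sham HFD and 20.9% in RYGB HFD.

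Likeness of pattern was measured as the root mean square difference of log2 CPM over the 20 mice, after each gene was set to its own mean, among all tested genes. Values are descriptions, and the mice share their groups. The nearest genes outside the members were *Ahsg* (0.20) to *Apoa1*, *Fetub* (0.22) to *Apom*, *Macrod1* (0.16) to *Apoc3*, *Smad7* (0.27) to *Apoa5*, *Mcee* (0.11) to *Apoc1*, *Cox6b1* (0.07) to *Apoa2* and *Ly6d* (0.61) to *Apoa4*. The spread of the members around their own means was 0.39, 0.52, 0.34, 0.45, 0.27, 0.19 and 1.64 in that order. Among the members themselves, the nearest to *Apoc3* was *Apoc1* (0.16), to *Apoc1* it was *Apoa2* (0.13), to *Apoa2* it was *Apoc4* (0.11), and *Apoa1* and *Apom* were nearest to each other (0.36). That difference was little below the spread of *Apoa1* itself (0.39). The nearest member to *Apoa5* was *Apoa2* (0.42) and to *Apoa4* it was *Apoc3* (1.54), also little below their own spreads (0.45 and 1.64).

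Of 17 other apolipoprotein genes, 13 were tested and 0 had a called mean surgery effect by edgeR (background 10.5%), DESeq2 or limma-voom (4 at an unadjusted p under 0.05). Without RYGB Chow replicate 5, 2 were called, and 1 without RYGB Chow replicate 3 or RYGB HFD replicate 3. The smallest p was that of *Apoc2*, the activator of lipoprotein lipase, at 0.56 (SE 0.21, adjusted p = 0.085). The next were *Clu* (0.14, adjusted p = 0.0972), *Apon* (-0.15, adjusted p = 0.128) and *Apobr* (0.44, adjusted p = 0.171). *Apoc2* had only 1.21 to 5.66 CPM, and 79.5% of its exon bases are shared on the same strand with *Gm44805*, itself at 2 counts or fewer in every mouse. The part of this sharing in its low count was not tested. The mean diet effect was higher for 7 of the 13 and lower for 0 (background 10.2% higher and 10.7% lower). Among the 7 were *Apon* (0.32, adjusted p = 0.00139), *Saa4* (0.40, adjusted p = 0.00253), *Apol7a* (0.61, adjusted p = 0.00334) and *Saa1* (1.30, adjusted p = 0.00346). The median over the 13 was 0.32, against 0.00 over all genes. In the interaction 2 were called (background 5.06%), *Clu* (0.38, adjusted p = 0.0367) and *Saa2* (-2.64, adjusted p = 0.0185), falling to 1 in 15 of 20 fits without 1 mouse. *Saa1* and *Saa2* are near-identical copies, so the split of reads between them is uncertain.

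Of 35 genes of lipoprotein assembly, remodelling and clearance, all tested, the mean surgery effect was higher for 4 and lower for 3 (background 10.5%). Higher were *Lsr*, a receptor for triglyceride-rich particles (0.39, adjusted p = 3.5e-04), *Sort1*, a sorting receptor that binds apolipoprotein B (0.80, adjusted p = 0.00126), *Scarb1*, the HDL receptor (0.35, adjusted p = 0.00153), and *Abcg8*, a sterol exporter (0.35, adjusted p = 0.00249). For *Sort1* and *Scarb1* this average joins unlike contrasts, since the surgery by diet interaction was called for each, as given below. Mean *Scarb1* on chow was 186 CPM with sham operation against 197 after RYGB, but on HFD these means were 198 and 303 CPM. Among those lower were *Pltp* and *Vldlr*. For *Vldlr*, the VLDL receptor, the average joins unlike contrasts, since its mean was 13.7 CPM in Sham HFD and 4.01 in RYGB HFD, but 5.59 in Sham Chow and 6.12 in RYGB Chow. The mean diet effect was higher for 5 and lower for 3, a share near the 20.9% of all genes. Among them were *Scarb1* (0.35, adjusted p = 6.8e-04), *Angptl4* (-0.57, adjusted p = 8.9e-04) and *Lrp1* (0.34, adjusted p = 0.011). The *Scarb1* diet average also joins unlike contrasts, since by the means above its rise on HFD lay mostly in RYGB mice. The interaction was called for *Vldlr* (-1.91), *Scarb1* (0.53) and *Sort1* (0.97), while DESeq2 called 6 of the list and scaling by library size only called 1. *Sort1* was 13.8 ± 3.46 CPM in Sham HFD against 23.2 ± 6.60 in Sham Chow, 28.9 ± 5.08 in RYGB Chow and 33.5 ± 6.80 in RYGB HFD.

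Of 35 transcription factors known to act on apolipoprotein genes, 34 were tested, and the mean surgery effect was higher for 3 and lower for 0, a share near the 10.5% of all genes. They were *Mlxipl*, the carbohydrate response factor (0.35, adjusted p = 0.00273), *Nr0b2*, a repressor induced by bile acids (0.69, adjusted p = 0.00832), and *Hnf4a*, a main activator of the cluster on chromosome 9 (0.31, adjusted p = 0.0429). The fourth by p, *Nr1d1*, a clock repressor, gave 0.29 (adjusted p = 0.0569). The mean diet effect was higher for 4 and lower for 5 (background 20.9%), led by *Srebf1*, a lipogenic factor (0.86, adjusted p = 3.8e-04), *Usf2* (-0.32, adjusted p = 0.00539), *Cebpb* (-0.39, adjusted p = 0.00557) and *Cebpa* (-0.20, adjusted p = 0.0257). These 9 calls became 4 without RYGB HFD replicate 1 and 5 without RYGB HFD replicate 3. In the interaction 0 were called by edgeR, 0 by limma-voom and 1 by DESeq2, with 3 at an unadjusted p under 0.05. The medians of the mean surgery effect were 0.07 over the 35 lipoprotein genes and 0.08 over the 34 factors, against -0.22 over the 10 members and 0.01 over all genes.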

How the data were processed

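Counts per gene in liver of 20 mice were deposited. Per the labels and the study's methods, the authors made strand-marking poly-A libraries, trimmed reads with Trimmomatic 0.36, aligned them with HISAT2 2.1.0 to mm10 and counted them with featureCounts 1.5.0-p3. The strand setting and annotation release of the counting are not given in the sources used here. The counts were tested as deposited in edgeR 4.0.16 (quasi-likelihood, TMM scaling, 1 model of 4 groups) in R 4.3.3, over genes that reached a CPM of 2 in 3 or more mice. The biological coefficient of variation was 0.181. The test was tested on simulated data. Exact permutation tests used log2(CPM + 0.5). Values and figures were made in Python 3.11.15 (pandas 2.3.3, matplotlib 3.10.9). Symbols and exon lengths came from GENCODE M21 and promoters from RefSeq. Each mouse was a separate animal with 1 library. Total counts per library had a median of 19056997, and reads carried no molecular identifiers, so counting error alone understates the error of a count.

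The members and lists were chosen with earlier results of these data known. All members were described, and in each other list the 4 genes with the smallest p in the mean surgery effect, the 4 in the mean diet effect and those called in the interaction were named, except a gene that is not reported here. *Gm47528*, *Gm10680*, *Gm47544* and *Gm44805* were named for their overlap, and the nearest genes by likeness. The alternatives were DESeq2 1.42.0, limma-voom (limma 3.58.1), DESeq2-type size factors in edgeR, scaling by library size only or without the members, no filter, a CPM of at least 5, a replicate block, only the 2 groups compared, and each mouse left out. Same-numbered mice of different groups had correlations of -0.257 to 0.165 (30 pairs), and mice of other numbers -0.268 to 0.362 (120 pairs). These values show no pairing by number, but they cannot exclude a shared batch or litter, which the labels do not name.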

Additional observations from a re-analysis of the deposited data

Results flagged for a closer look

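In 4 of the 40 groups of 5 mice examined (10 members, 4 groups), 1 mouse lay far from the other 4, where chance gives about 1 in 20 groups. *Apoa4* was at 225 CPM in RYGB Chow replicate 3 against 28.4 to 75.1 CPM in the others of its group. *Apoa5* was at 1332 CPM in the same mouse against 569.8 to 765 CPM. *Apoc4* was at 359 CPM in Sham HFD replicate 1 against 404 to 422 CPM, and *Apoe* at 19747 CPM in that mouse against 24310.3 to 25454 CPM. Diet effects differed between RYGB and sham mice by the interaction test for *Apoa4* (-3.46 on the log2 scale), *Apom* (0.87) and *Apoa1* (0.72). The adjusted p-values were 0.00201, 0.0115 and 0.0423 (edgeR). For *Apoa1* the call was not firm, being lost in 14 of 20 fits without 1 mouse.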

How the results depend on the processing

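Of 23 called results of the members, 186 values under other settings kept call and direction and 7 lost the call, and 413 values without 1 mouse kept it and 47 lost it. With no filter the lost calls were *Apoe* in Sham HFD vs. RYGB HFD, *Apoa2* in the mean surgery effect, *Apob* in the mean diet effect and *Apoa1* in the interaction. With library size only they were *Apoa5* in the mean diet effect and *Apoa1* in the interaction, and the replicate block is given below. Of 47 results that were not called, 14 values under other settings gained a call and 8 reversed, and 11 and 38 did without 1 mouse. In Sham Chow vs. RYGB Chow, 1 member was called by DESeq2 and 1 with library size only, and 0 to 1 without 1 mouse. In Sham Chow vs. Sham HFD, 5 were called with library size only, a scaling that moved the median of all genes to 0.12 there and to -0.12 in the interaction. With library size only, *Apob* became 0.0069 in Sham Chow vs. RYGB Chow, -0.015 in Sham HFD vs. RYGB HFD, -0.0043 in the mean surgery effect and -0.022 in the interaction, and in Sham Chow vs. Sham HFD *Apoa2* became 0.057, *Apoc1* 0.047 and *Apoc4* 0.055. By limma-voom the *Apoa5* interaction became 0.016. The cause of these changes was not tested. Without 1 mouse, the ranges that crossed 0 were -0.34 to 0.62 (*Apoa4*) and -0.094 to 0.015 (*Apob*) in Sham Chow vs. RYGB Chow. They were -0.19 to 0.027 (*Apoc1*), -0.13 to 0.049 (*Apoc3*) and -0.11 to 0.022 (*Apoe*) in RYGB Chow vs. RYGB HFD, -0.0089 to 0.048 (*Apob*, mean surgery effect) and -0.029 to 0.058 (*Apoc3*, mean diet effect). In the interaction they were -0.11 to 0.041 (*Apoa2*), -0.14 to 0.22 (*Apoa5*), -0.11 to 0.11 (*Apoc1*) and -0.14 to 0.061 (*Apoc4*). Members called without 1 mouse were 4 to 8 in Sham HFD vs. RYGB HFD, 2 to 4 in Sham Chow vs. Sham HFD, 6 to 8 and 3 to 4 in the mean surgery and diet effects, and 2 to 3 in the interaction. With the replicate number as a block the call of *Apoe* in Sham HFD vs. RYGB HFD was lost (adjusted p = 0.0694), and no other member's call was. Over all genes, 7 were called in Sham Chow vs. RYGB Chow (DESeq2 92, limma-voom 3, no filter 13, only the 2 groups 0) and 448 in RYGB Chow vs. RYGB HFD (DESeq2 751, only the 2 groups 184). Of the calls in Sham Chow vs. Sham HFD, 50.3% were higher, and 80.4% with library size only.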
